A study of Mus musculus with 4 samples.

Results

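The cells described here were a small stromal population of mouse brown adipose tissue (BAT), chosen on measured values by the summed level of 5 genes, Cilp, Eln, Apod, Hmcn2 and Inmt. A cell that passed quality filters was a member when its fibroblast genes (Col1a1, Col1a2, Col3a1, Dcn and Gsn) summed to at least 60 transcripts per 10000, when its macrophage, endothelial and activated-fibroblast genes stayed under their limits, and when the 5 marker genes summed to at least 10 per 10000 and exceeded the sums of the Pi16, Dpp4, Sbsn and Igfbp6 set and of the Col15a1, Col4a1, Col4a2 and Sparcl1 set. This rule found 988 of 28887 quality-passing cells. The WT library gave 329 of 5944, the younger diabetic library (db/db 8w) 560 of 11648, the older one (db/db 16w) 41 of 5833, and the high-fat diet library (HFD) 58 of 5462. Values given 4 at a time follow this order, and values given 3 at a time compare the last 3 libraries with WT. The other stromal cells fell into the Pi16 Dpp4 class, with 4108 cells, and the Col15a1 Col4a1 class, with 4677 cells, which served as the comparison, into 2516 activated cells with Has1, Ptx3 or Tnfaip6, and into 416 cells of no class. Since the 5 genes chose the members, their levels are given as a description.

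Fibroblasts of adipose tissue build the collagen and elastic scaffold around adipocytes, vessels and nerves, and some of them are precursors of new adipocytes. Pi16 and Dpp4 mark an interstitial progenitor state and Col15a1 and Col4a1 a state nearer to preadipocytes with a basement-membrane programme. Cilp encodes a matrix protein of cartilage and other dense connective tissue, Eln encodes tropoelastin, the core of elastic fibres, Hmcn2 a large extracellular matrix protein, Apod a small lipid-carrying lipocalin, and Inmt a methyltransferase of small amines. Elastic fibres give vessel walls and connective tissue sheaths their recoil.

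All 4 libraries were made from the stromal vascular fraction, the cells left after collagenase digestion once floating adipocytes are removed, and every group was labelled C57BL6/J. WT was labelled 10 weeks of age. The db/db 8w and db/db 16w groups were 8 and 16 weeks old and carried the Leprdb mutation of the leptin receptor, and the HFD group was wild-type mice on a high-fat diet, labelled 10 weeks although the methods start the diet at that age, so the age at collection was not settled. The methods call all mice male and fasted, with frozen cells, and cells of several mice went into each library, so that 1 library stood for each group and no comparison between groups could be tested. The study used these libraries to follow the stromal and immune cells of BAT through obesity and diabetes, and the values below ask what this population did in the same libraries.

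The libraries differed in ways that touch the values below. They held between 6517 and 18306 barcodes, of which 31.3% (HFD) to 89.5% (db/db 16w) passed the filters, and the share of barcodes over the mitochondrial limit ran from 1.04% in db/db 16w to 68.5% in HFD. The db/db 16w library stood apart, since its Xist level was 207 CPM (unique molecular identifiers, UMIs, of a gene per 1000000 in all) against 0.187 to 0.688 CPM elsewhere, and its Y-linked genes were at 17.7 CPM against 164 to 188 CPM, although the methods name males. Sex, age and group cannot be told apart in that library, and counts that rest on it are also given without it. Pairs of libraries shared 16 to 97 barcode sequences, none of them in members of both.

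Members differed in depth among the libraries. Their median transcript count (UMIs) was 7033, 3206, 1962 and 3991.5, and their median mitochondrial share 3.02%, 5.16%, 0.706% and 11.1%. Members were thus deepest in WT and shallowest in db/db 16w. Summed over members the libraries held 2570740, 2281437, 106059 and 235682 UMIs. A level of 20 CPM was therefore about 50 UMIs in WT but about 2 in db/db 16w, where 1 member alone carried 14106 UMIs, and the values of that library are the least firm. A doublet caller marked 19, 47, 1 and 6 members, which stayed in. At the edges of the rule, 12, 6, 0 and 1 members had a marker sum between 10 and 15 per 10000, and 7, 8, 0 and 1 other cells had one between 5 and 10 that was the highest of the 3 sums. A closer margin was the choice between classes, since 108, 138, 20 and 25 members had a marker sum less than 1.5 times their next sum.

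Members made up 5.53%, 4.81%, 0.703% and 1.06% of quality-passing cells. The 95% Clopper-Pearson intervals, which here and below cover counting error only, were 4.97% to 6.15%, 4.43% to 5.21%, 0.505% to 0.952% and 0.807% to 1.37%. Against WT the share was lower by 0.727 points in the younger diabetic mice (difference -0.727, interval -1.45 to -0.0303), and by far more at 16 weeks (-4.83, -5.48 to -4.21) and under HFD (-4.47, -5.14 to -3.83). The drop went with a smaller stroma, and fibroblast-gene cells were 72.1%, 48.9%, 20.2% and 28.4% of all cells. Among the cells of the 3 stromal classes alone, members were 11.2%, 12.5%, 3.70% and 4.65%, so db/db 8w lay 1.37 points above WT with an interval that spanned 0 (-0.161 to 2.87), while the other libraries differed from WT by -7.46 and -6.51 points (-9.03 to -5.75 and -8.13 to -4.79). Shares among captured cells depend on which other cells each digestion released, and their part in these differences was not tested.

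**Figure D1:**
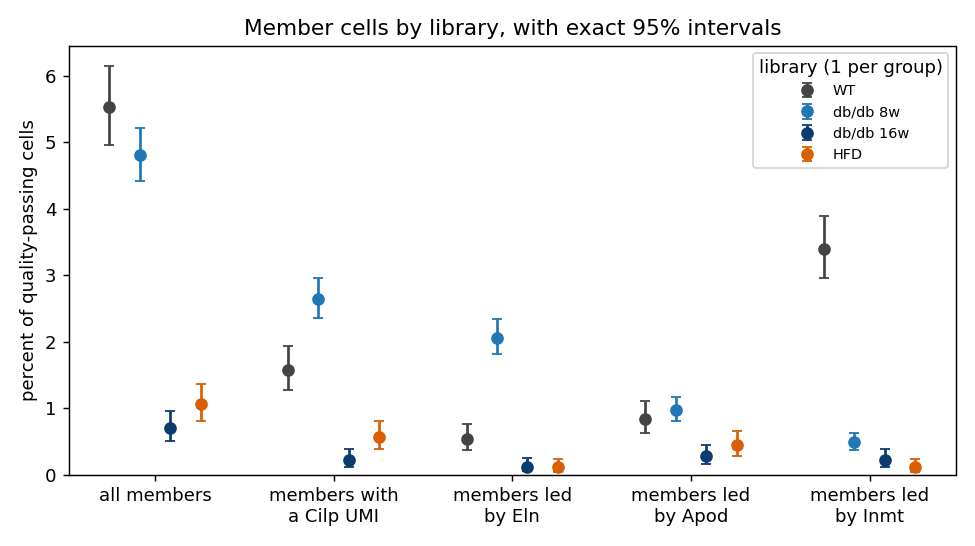
Share of quality-passing cells in percent in each of the 4 libraries, with 95% binomial intervals as bars. The series are all members, members with a Cilp UMI, and members led by Eln, Apod or Inmt. A member is led by the marker gene with the most UMIs in that cell. For all members the first pair of libraries lies at 5.53% and 4.81%, and the second pair at 0.703% and 1.06%.

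The marker genes themselves were not one block. Cilp (chr9:65265180-65280605, plus strand, GRCm38) stood in members at 645, 1499, 915 and 1112 CPM. Eln (chr5:134702593-134747323, minus strand) stood at 965, 3422, 1876 and 921 CPM, highest in db/db 8w. Inmt (chr6:55170626-55175043, minus strand) went the other way, at 2623, 853, 1292 and 1239 CPM, so that WT members held the most. Apod (chr16:31296192-31314808, minus strand) was the most even at 1881, 1691, 2433 and 2635 CPM. Hmcn2 (chr2:31314415-31460738, plus strand) stood at 428, 732, 415 and 598 CPM. In the Pi16 Dpp4 class the same genes were lower, for example Cilp at 2.10, 103, 273 and 9.57 CPM, and in the Col15a1 Col4a1 class Inmt was at 931, 238, 132 and 243 CPM. Outside members Inmt was also highest in WT in both classes, so the WT excess of Inmt was not particular to the members.

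The population's name fits only part of it. A Cilp UMI was seen in 94 of 329 WT members (28.6%), and in 308 of 560 (55%), 13 of 41 (31.7%) and 31 of 58 (53.4%) of the other libraries. When each cell was thinned to 1000 UMIs, which drops 12, 72, 11 and 0 members, the shares were 21.1%, 48.2%, 26.7% and 41.4%. Macrophage-gene cells (Lyz2 and C1q), which should lack the gene, had a Cilp UMI in 0.158%, 0.350% and 0.0547% of thinned cells in the libraries other than db/db 16w, and there in 0 of 1951, which allows up to 0.154%. Their median depths were 5392, 5024.5, 4990 and 5700 UMIs. The member shares lay above this background, which the rule favours because Cilp belongs to its marker sum. In thinned Col15a1 Col4a1 cells the Cilp shares were 1.37%, 5.09%, 4.59% and 10.4%, and in Pi16 Dpp4 cells 0.181%, 4.37%, 11.5% and 0.714%. At least 3 of the 5 genes were detected together in 70.5%, 75.2%, 48.8% and 86.2% of members, which selection on their sum favours. In all stromal cells at 2000 UMIs, activated cells aside, Eln was seen in 70.5%, 75.1%, 39.1% and 38.7% of cells with a Cilp UMI. Without a Cilp UMI it was seen in 29.4%, 44.6%, 19.7% and 35.2%. For Inmt the shares were 77.3%, 27.9%, 21.9% and 29.3% with a Cilp UMI, and 42.4%, 19.5%, 15.5% and 30.0% without. Apod and Hmcn2 were more frequent with Cilp in every library.

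**Figure D2:**
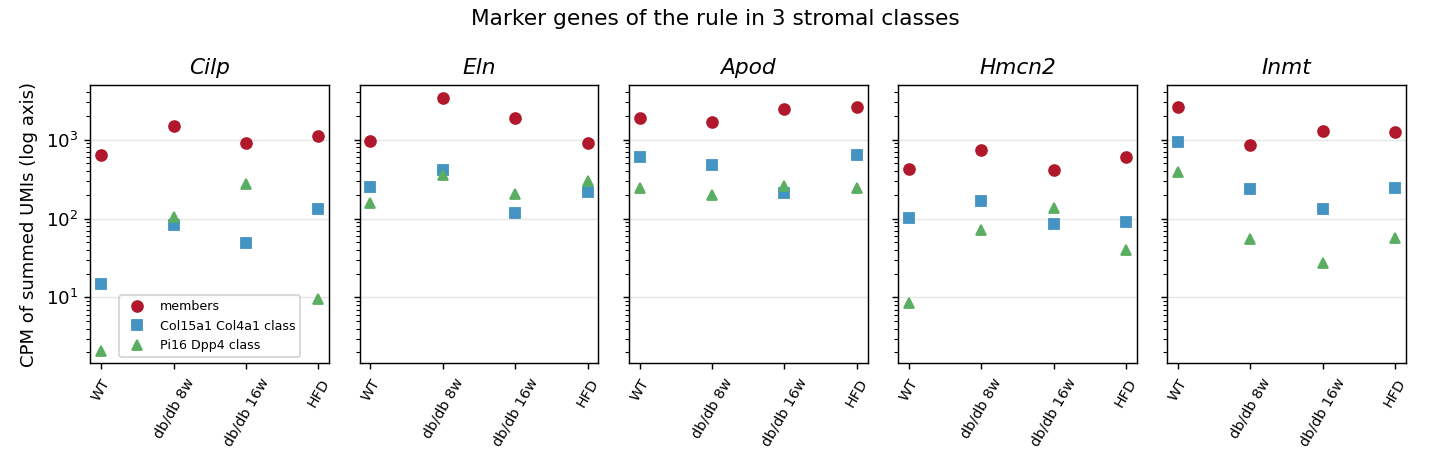
Level of the 5 marker genes in CPM on a log axis in the 4 libraries, for members and for the 2 comparison classes. Members lie above both classes for every gene, with Inmt highest in WT (2623 CPM) and Eln highest in db/db 8w (3422 CPM).

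Asking which of the 5 genes had the most UMIs in each cell showed how the makeup differed. In WT, 202 of 329 members (61.4%) were led by Inmt, against 57 of 560 (10.2%), 13 of 41 (31.7%) and 6 of 58 (10.3%) in the other libraries. Eln led 240 members (42.9%) of db/db 8w but 32 WT members (9.73%), 7 of the older diabetic mice (17.1%) and 6 of HFD (10.3%). Apod led 15.2%, 20.2%, 39.0% and 41.4% of members. Cilp led 26, 84, 1 and 12 cells, and Hmcn2 led 6, 18, 3 and 2. WT members were thus mainly Inmt-led, and those of db/db 8w were most often led by Eln and those of the other libraries by Apod.

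Split by these leads, the shares of quality-passing cells no longer moved together. Inmt-led members were 3.40% of quality-passing cells in WT and 0.489%, 0.223% and 0.110% in the others, differences of -2.91, -3.18 and -3.29 points. Eln-led members were 0.538% in WT and 2.06% in db/db 8w, a difference of 1.52 points (1.19 to 1.84), but 0.120% and 0.110% in the other 2 libraries. Members with a Cilp UMI were 1.58%, 2.64%, 0.223% and 0.568%, higher than WT by 1.06 points in db/db 8w (0.612 to 1.49), with differences of -1.36 and -1.01 points for the last pair (-1.72 to -1.02 and -1.41 to -0.630). Members with a Cilp UMI and members led by Eln were therefore more frequent in db/db 8w than in WT although all members together were not. Both subsets are set by genes of the rule, so these shares describe the selection. Outside members Cilp was higher in db/db 8w than in WT, at 103 against 2.10 CPM (Pi16 Dpp4) and 82.3 against 14.5 CPM (Col15a1 Col4a1). Eln was too, at 361 against 159 CPM and 408 against 248 CPM in these classes. With Inmt left out of the marker sum, an alternative chosen after seeing the data, db/db 8w lay 1.96 points above WT among quality-passing cells, and 6.29 points above it among the 3 classes. The direction of the db/db 8w share hence rested on whether Inmt counted as a marker, whereas the other differences stayed negative on quality-passing cells, at -1.73 and -1.34 points. Among the 3 classes without Inmt, members were 4.22%, 1.90% and 3.28% in WT, db/db 16w and HFD, against 11.2%, 3.70% and 4.65% with it. Within the stroma the lower shares at 16 weeks and under HFD thus also rested in part on Inmt.

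**Figure D3:**
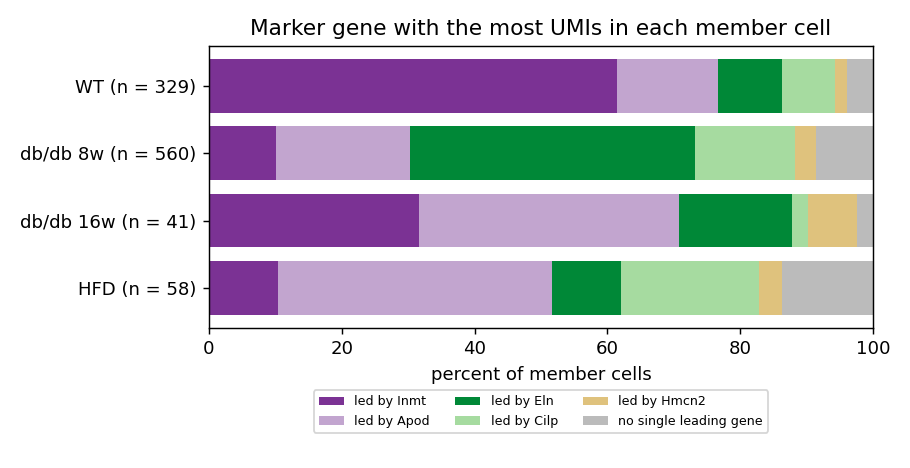
Percent of members in each library led by Cilp, Eln, Apod, Hmcn2 or Inmt, the marker gene with the most UMIs in a cell, with ties shown as no single lead. Inmt leads 61.4% of WT members and Eln 42.9% of db/db 8w members.

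Whether the members resembled each other in genes that the rule did not use was described with nearest neighbours, computed among stromal cells of one library without any gene of the rule. Of the 15 nearest cells of a member, 47.1% on average were members in WT, where members were 10.8% of the stromal cells searched. The other values were 43.9% against 11.8%, 8.13% against 3.63%, and 25.4% against 4.60%. Pi16 Dpp4 cells had members for 2.92%, 4.73%, 6.24% and 1.52% of their neighbours and Col15a1 Col4a1 cells for 14.9%, 7.19%, 1.79% and 2.24%. WT members with a Cilp UMI sat most tightly together, with 81.5% member neighbours against 33.3% for those without one, and db/db 8w gave 55.8% and 29.3%. The pair was 31.0% and 19.0% for HFD but 8.72% and 7.86% at 16 weeks. Median UMIs were 9100.5, 4408.5, 2554 and 4255 in members with a Cilp UMI and 6349, 2350, 1487 and 3606 in those without. The part of depth in these neighbour shares was not tested. None of the 41 db/db 16w members had a majority of member neighbours, and 85.4% of their neighbours were Col15a1 Col4a1 cells, which were 91.8% of the stroma searched. The rule thus picked cells in db/db 16w that did not form a neighbourhood of their own, at the lowest depth of the 4 libraries.

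**Figure D4:**
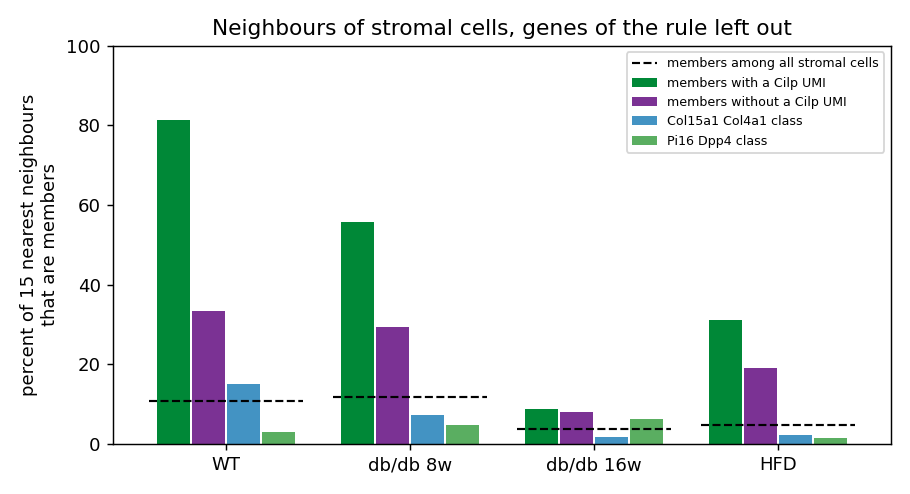
Percent of the 15 nearest stromal neighbours that are members, by library, with the share of all members in the stroma marked. Bars stand for members with and without a Cilp UMI and for the 2 comparison classes. Members with a Cilp UMI reach 81.5% in WT, and all db/db 16w values stay under 9%.

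Genes that the marker sum did not use, and that stood higher in members than in both other classes, were ranked by their smallest log2 ratio (with 10 CPM added, as in every ratio below) to either comparison class in any library, over 3769 genes with at least 20 CPM in members of every library, and these ratios describe the cells the rule selected. Of these genes, 136 were higher in members in all 8 ratios and 7 were at least 2-fold higher in all 8. The ranking includes db/db 16w, where the Pi16 Dpp4 class held 31 cells, and is not given without that library. Thbs4, a thrombospondin of tendon and muscle matrix, led with a smallest ratio of 3.43, at 173, 605, 1424 and 157 CPM in members and at 3.15, 46.9, 81.8 and 0 CPM in the Pi16 Dpp4 class. In db/db 16w 98 of its 151 UMIs lay in 1 of 7 cells, without which the level was 523 CPM, and in HFD 21 of 37 lay in 1 cell (69.6 CPM without it). Such values without the 1 member that held the most UMIs of a gene were an alternative chosen after seeing the data. C7, a terminal complement component, stood at 290.2, 120.1, 84.9 and 212 CPM in members. Tgfbi, a matrix protein induced by transforming growth factor beta (TGF-beta), stood at 451, 293, 169.7 and 386 CPM. C1qtnf3, an adipokine of the C1q family, was at 30.0, 126, 311 and 29.7 CPM, and came from few cells (26, 84, 5 and 7), of which 1 held 18 of 33 UMIs in db/db 16w. Fbln1, an elastic-fibre-associated fibulin, was at 555, 632, 113 and 344 CPM, with db/db 16w the lowest. Cgnl1, a junction protein, was nearly level over the libraries at 54.5, 54.4, 66.0 and 50.9 CPM. Ccbe1, needed for lymphatic growth through vascular endothelial growth factor C, was the seventh gene, at 21.4, 25, 75.4 and 50.9 CPM.

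Further genes of this ranking fell into a few roles, although each was under 2-fold in at least 1 ratio. Mfap4, a microfibril-associated protein, stood at 128, 540.0, 179 and 157 CPM, highest in db/db 8w. Sfrp1, a secreted Wnt inhibitor, was at 504, 366, 151 and 318 CPM, and Gdf10, a bone morphogenetic protein (BMP) family ligand, at 172, 242, 349 and 280.0 CPM. Igf1, the insulin-like growth factor, was at 271, 281, 198 and 293 CPM, with no library far from the others. Gas6, a ligand of TAM receptors, stood at 405, 372, 264 and 603 CPM and Angptl1, an angiopoietin-like protein, at 152, 237, 396 and 102 CPM. Abca8a, a lipid transporter of the ABC family, was at 705, 503, 547 and 810.4 CPM, and Fmo2, a flavin monooxygenase, at 302, 428, 915 and 301 CPM. Itm2a, Fibin, Tspan11, Clu, Fxyd6, Igfbp3, Ccn2, Mgp and Spock2 were further genes of the ranking. In the other direction none of 3609 genes was at least 2-fold lower in all 8 ratios. Igfbp5, an insulin-like growth factor binding protein, came nearest, at 284, 443, 726 and 149 CPM in members and 1921, 5395, 4512 and 7135 CPM in the Pi16 Dpp4 class, and it was followed by Lamb1, Efemp1, Loxl2, Acly, Nln, Mgrn1, Pcdh19, Sntb2 and Smarce1.

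Among members, a set of tendon-cell genes, and in WT the leptin receptor, were found mostly in those with a Cilp UMI. The 8 tenocyte genes summed to 248, 648, 1461 and 250 CPM, of which Thbs4 alone made up 173, 605, 1424 and 157 CPM, while Scx and Kera, which define tendon cells, were at 0 in every library, and Comp at 0 in WT and db/db 16w. Members with at least 2 of these UMIs numbered 53, 118, 6 and 8, and 47, 114, 6 and 8 of them also had a Cilp UMI. These cells were 16.1%, 21.1%, 14.6% and 13.8% of members, against 0.222% to 3.23% of Pi16 Dpp4 cells and 0.545% to 10.7% of Col15a1 Col4a1 cells. By number, Col15a1 Col4a1 cells with at least 2 of these UMIs exceeded such members in db/db 16w (25 against 6) and HFD (112 against 8). Lepr, the receptor whose gene is mutated in db/db mice, had 25 UMIs in all WT cells, and 21 of them (84%, 63.9% to 95.5%) lay in 15 members, 14 of which had a Cilp UMI. Elsewhere the members held 3 of 16, 0 of 1 and 1 of 8 Lepr UMIs, and in db/db 8w the Pi16 Dpp4 class held 8 of the 16. A count of 0 allows 28.3 CPM in db/db 16w members, above the WT level of 8.17 CPM, so its absence there was not detectable at this depth. A 3′ library does not show whether the mutant transcript is intact.

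Comparing members between libraries, 112 of 6064 genes (1.85%) were at least 2-fold higher in db/db 8w than in WT and 58 (0.956%) were at least 2-fold lower. The numbers were 921 (14.1%) and 716 (11%) of 6511 in db/db 16w, and 623 (9.17%) and 277 (4.08%) of 6795 in HFD. Genes tested had at least 20 CPM in one of the 2 libraries, and the larger numbers went with the fewer cells and UMIs of those libraries. Without the largest db/db 16w member, chosen after seeing the data, 1140 genes were higher and 730 lower there. With median-of-ratios scaling instead of CPM the split turned to 575 higher and 1080 lower in db/db 16w and to 470 and 436 in HFD, and with no filter on low levels it was 1116 and 1304 in db/db 16w. The median log2 ratio of all genes tested was 0.06, 0.18 and 0.19, and that scaling moved the last 2 of these to -0.07 and 0.05. Ratios near these medians therefore have no direction of their own. All 3 comparisons share the WT library, so genes that moved alike in all 3 are listed side by side and not as independent support.

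Mgp, the matrix Gla protein that binds calcium and restrains mineralization and BMP signalling, had the largest ratio to WT, by the smallest of its 3 ratios, among the genes that the naming rule covered. Its level (chr6:136872435-136875823, minus strand) was 274, 2393, 3489 and 2839 CPM, and 121 of 329, 350 of 560, 32 of 41 and 46 of 58 members had a UMI. WT was the lowest library by a wide margin, with log2 ratios of 3.08 (3.01 to 3.24 without the added CPM), 3.62 (3.48 to 3.85) and 3.33 (3.22 to 3.53). Inmt-led members gave 155, 1747, 2488 and 2230.1 CPM and members with a Cilp UMI 417, 2398, 5229 and 3395 CPM, so WT was also the lowest library within each of these subsets. The same ratios were 2.96, 3.87 and 2.96 in the Pi16 Dpp4 class and 3.0, 3.37 and 4.18 in the Col15a1 Col4a1 class, and the difference was not particular to members.

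Several other genes were higher in all 3 libraries than in WT. Col8a1, a short-chain collagen of vessel and eye matrix, stood at 18.3, 227, 245 and 229 CPM, with ratios of 3.06, 3.17 and 3.08, though only 6 db/db 16w members had it, 1 of them with 10 of the 26 UMIs. In the Pi16 Dpp4 class its ratios were 2.50, 3.79 and 2.09, and in the Col15a1 Col4a1 class 2.02, 3.29 and 3.76. Hes1, a target of Notch signalling, was at 28.0, 117, 141 and 149 CPM (77.6 CPM in db/db 16w without 1 cell that held 7 of 15 UMIs), and Cdh11, a cadherin of mesenchymal cells, at 19.4, 83.3, 66.0 and 106 CPM. Other names were Tyrobp, Fcer1g, Srgn, Lcp1, Lgals3, Ctss and Ctla2a. Of these, Tyrobp, Fcer1g, Srgn, Lcp1 and Ctss are genes of myeloid cells, and Tyrobp stood at 7.39, 55.2, 132 and 110.3 CPM. Lgals3, a galectin made by macrophages and by fibroblasts, was at 78.2, 251.2, 962 and 407 CPM. The largest db/db 16w member, with 14106 UMIs, held 13 of 14 Tyrobp, 15 of 16 Fcer1g, 5 of 5 Lcp1, 6 of 7 Ctss and 68 of 102 Lgals3 UMIs of that library. Without it the db/db 16w level was 10.9 CPM for Tyrobp and 370 CPM for Lgals3, and the log2 ratio to WT was 0.26 for Tyrobp, 0.63 for Fcer1g, -0.11 for Lcp1, 0.40 for Ctss and 2.11 for Lgals3. The first 4 of these were then under 2-fold. Ctla2a rested on 1 cell for 18 of 23 UMIs. The 10 macrophage markers, Tyrobp among them, summed to 108, 316, 264 and 564 CPM in members, and the other 9 to 101, 261, 132 and 454 CPM, so that HFD was the highest. The part of macrophage RNA in the higher levels was not tested.

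Genes that were lower in all 3 libraries included immune-signalling genes that were high in WT. Cxcl13, the chemokine that attracts B cells, stood at 1671, 345, 236 and 63.6 CPM, with ratios of -2.25, -2.77 and -4.51. The ratios were -3.50, -5.28 and -3.07 in the Pi16 Dpp4 class and -2.34, -5.65 and -3.93 in the Col15a1 Col4a1 class. The lower Cxcl13 was thus not particular to members. Its level was higher in members without a Cilp UMI, at 2336, 472, 476 and 142 CPM, than in those with one, at 243, 280.4, 0 and 7.29 CPM, so in db/db 8w the lower level was not seen in members with a Cilp UMI. Members without one held 4096 UMIs against 199 in WT, but 360 against 426 in db/db 8w, and in db/db 16w 23 of all 25 lay in 1 cell. C3, the central complement component, was broad, at 3683, 1514, 754 and 1477 CPM with 298 of 329 WT members positive and ratios of -1.28, -2.27 and -1.31. Its ratios in the other classes were -1.05, -2.49 and -1.14 (Pi16 Dpp4) and -2.12, -2.37 and -1.35 (Col15a1 Col4a1). Plac8 stood at 341, 82.0, 18.9 and 72.1 CPM. It was also lower in the Pi16 Dpp4 class (-2.29, -3.53 and -2.15) and the Col15a1 Col4a1 class (-1.95, -2.49 and -1.17). Il1r2, the decoy receptor of interleukin 1, was at 106, 21.0, 9.43 and 0 CPM, and its absence among HFD members means a level at least 8.31-fold lower than WT against a floor of 3 UMIs. Tnmd, tenomodulin of tendon cells, was at 70.0, 21.5, 9.43 and 12.7 CPM, from 30 WT members. Usp54, Alkal2, Gnai1, Plcxd3 and Mmp27 were the weaker names. Ttr and Car3 also met the rule but rested on 3 and 12 WT cells, and 1 cell each held 130 of 132 Ttr and 379 of 498 Car3 UMIs. Over all genes measured in the 3 comparisons, 1418 of 5490 were higher and 941 were lower in all 3. Without db/db 16w the numbers were 2308 and 1410 of 5638, and 7 of the 12 names that were higher and 11 of the 12 that were lower remained.

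**Figure D5:**
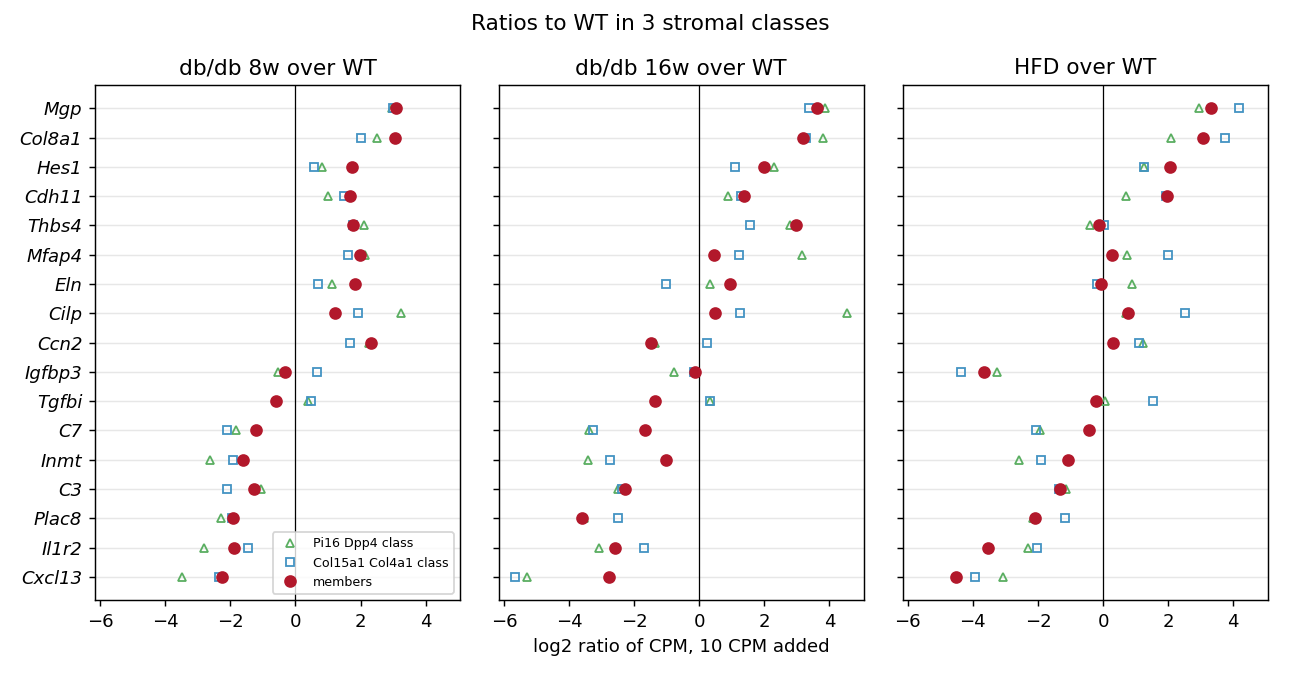
Log2 ratio to WT (10 CPM added) of 17 genes, 1 panel per comparison, for members (filled circles), the Pi16 Dpp4 class (triangles) and the Col15a1 Col4a1 class (squares). Mgp lies near or above 3 in every panel and class, and Igfbp3 lies far below 0 in HFD only.

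Elastic-fibre and microfibril genes build the network to which Eln belongs. Of 18 measured, 5 were at least 2-fold higher there (against 1.85% of all genes) and 1 was lower, with a median log2 ratio of 0.44 against 0.06 for all genes. The 5 included Eln, which the rule used. The others were Mfap4, Fbn2, Fbln2, a fibulin, at 781, 2035, 1499 and 1481 CPM, and Mfap5, a microfibril glycoprotein, at 734, 2049, 1716 and 967 CPM. Efemp1, another fibulin, was lower, at 317, 141, 47.1 and 72.1 CPM. At 16 weeks 1 gene (Mfap5) was higher and 4 were lower (Fbln1, Efemp1, Ltbp1 and Emilin2), and in HFD none was higher and 2 were lower (Efemp1 and Emilin2), where 14.1% of all genes were higher and 11% lower at 16 weeks, and 9.17% and 4.08% in HFD. The summed level was 6482, 12918, 8099 and 7345 CPM, highest in db/db 8w. Eln itself was 3422 of the 12918 CPM in db/db 8w and 965 of the 6482 CPM in WT, and more of the db/db 8w members were led by it. The medians in db/db 16w and HFD were 0.07 and 0.21.

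For the matrix groups that follow, the shares of all genes past 2-fold were 1.85% higher and 0.956% lower in db/db 8w, 14.1% and 11% in db/db 16w, and 9.17% and 4.08% in HFD. Among 17 collagens, Col8a1 and Col12a1 were higher and none lower in db/db 8w, Col8a1 and Col18a1 higher and Col14a1 lower in db/db 16w, and Col8a1 higher and Col1a1, Col1a2 and Col12a1 lower in HFD, with medians of 0.32, 0.54 and 0.04. Of these collagens, Col1a1, Col1a2 and Col3a1 belong to the rule for members, and Col4a1, Col4a2 and Col15a1 to the sum of a comparison class. Col1a1, the main chain of fibrillar collagen I, stood at 16582, 9609, 10069.9 and 3488 CPM, and its ratio in HFD was -2.25. Sparc, which binds collagen, was at 14134, 10649.9, 9608 and 6827 CPM. Of the small leucine-rich proteoglycans, which regulate collagen fibrils, 2 of 8 were higher and 0 lower in db/db 8w, 2 and 2 of 9 in db/db 16w, and 2 and 0 of 9 in HFD, with medians of -0.08, -0.02 and 0.43. Dcn on that list belongs to the rule for members. Bgn, biglycan, was higher in all 3, at 1188, 2556, 2612 and 2529 CPM. Matricellular proteins, which act on cells more than they bear load, gave 8 higher and 0 lower of 17 in db/db 8w, with a median of 0.96. The 8 were Thbs1, Thbs4, Sparcl1, Postn, Ccn2, Ccn3, Ccn5 and Cilp, of which Cilp belongs to the rule for members and Sparcl1 to the sum of a comparison class. Postn, periostin, was at 112, 419, 2018 and 80.6 CPM and far the highest in db/db 16w, where 22 of 41 members had it. In db/db 16w and HFD 4 of 15 and 5 of 16 were higher and 2 and 2 lower, with medians of -0.09 and -0.11, close to or under those of all genes. Among 15 proteases and inhibitors, Timp1, an inhibitor of matrix metalloproteases, was at 46.7, 151, 66.0 and 115 CPM, where 1 HFD cell held 14 of 27 UMIs, and Ctsk, a collagen-degrading cathepsin, at 325, 456, 1065 and 577 CPM. For the group, 2 were higher and 0 lower in db/db 8w, 1 and 1 in db/db 16w (of 14), and 4 and 1 in HFD, with medians of -0.06, 0.11 and 0.53.

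Fibroblasts are a local source of complement proteins, and several were lower outside WT. Of 11 measured, none was at least 2-fold higher in any comparison, and 4 (C2, C3, C4b and C7), 3 (C3, C4b and C7) and 1 (C3) were lower in the 3 comparisons, against 0.956%, 11% and 4.08% of all genes. The medians were -0.66, -0.70 and -0.26, and the summed level was 9362, 5699.9, 4290.1 and 6780.3 CPM, so WT was the highest. C4b, of the classical pathway, stood at 715, 318, 321 and 454 CPM. The ratios of C4b in the Pi16 Dpp4 class were -1.66, -1.41 and -1.66, and those in the Col15a1 Col4a1 class -2.45, -3.67 and -1.25. C1s2 and C1rb were at 0 in HFD members, against 270.0 and 238 CPM in WT, while their near-identical neighbours C1s1 and C1ra were measured there, and how counting divided reads between these copies is not known, so both values are uncertain.

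Of 12 chemokines and cytokines measured in db/db 8w, 5 were higher (Ccl2, Ccl7, Ccl8, Cxcl1 and Cxcl2) and 2 lower (Cxcl12 and Cxcl13), against 1.85% and 0.956% of all genes. Ccl2, which recruits monocytes, stood at 54.5, 125, 0 and 8.49 CPM, and Cxcl2, which recruits neutrophils, at 24.1, 426, 56.6 and 119 CPM. In db/db 8w 1 member held 258 of 972 Cxcl2 UMIs. Macrophage-gene cells held Cxcl2 at 7755, 15506, 545 and 3646 CPM, and the part of their RNA was not tested. The db/db 8w ratio of Cxcl2 was 1.99 in the Pi16 Dpp4 class and 2.56 in the Col15a1 Col4a1 class, against 3.68 in members. Cxcl12, which holds leukocytes in stroma, was at 594, 189, 339 and 424 CPM. At 16 weeks 3 of 11 were higher and 5 lower (14.1% and 11% of all genes), and in HFD 3 and 2 of 12 (9.17% and 4.08% of all genes), and the medians were 0.55, -0.79 and 0.10. Il1b, a cytokine of myeloid cells, was at 4.28, 106, 0 and 8.49 CPM, from 79 members in db/db 8w, 1 of which held 109 of 242 UMIs, beside the macrophage marker sum given above. Of the interferon and MHC class I genes none was higher, and 2 of 8, 3 of 8 and 1 of 9 were lower, with medians of -0.74, -0.58 and -0.25. Ifi27l2a, an interferon target, was lower in all 3, at 648, 280.1, 66.0 and 174 CPM, and Iigp1, an interferon-induced GTPase, at 153, 19.7, 18.9 and 250.3 CPM, was lower in the db/db libraries and not in HFD.

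Genes of 4 signalling pathways were counted against the same shares of all genes, 1.85% higher and 0.956% lower in db/db 8w, 14.1% and 11% in db/db 16w, and 9.17% and 4.08% in HFD. Of 15 TGF-beta ligands, receptors and targets, Skil and Ccn2 were higher and none lower in db/db 8w. Ccn2, connective tissue growth factor, was at 96.5, 521, 28.3 and 123 CPM, so db/db 8w stood alone above the others. In db/db 16w 1 of 13 was higher (Tgfb1) and 5 lower, with Tgfbi and Ccn2 among them, and in HFD 1 of 14 was higher (Tgfb1). The medians were 0.23, -0.70 and 0.43. Tgfb1, the ligand itself, stood at 16.3, 27.6, 75.4 and 55.2 CPM. Of 11 BMP genes none passed 2-fold in db/db 8w, 1 was higher and 2 lower in db/db 16w, and 1 was higher in HFD, with medians of 0.02, 0.19 and -0.05. For 8 Wnt pathway genes the counts were 0 and 0, 1 and 4 (Sfrp1, Sfrp2, Sfrp4 and Dkk2 lower), and 0 and 2 (Sfrp2 and Dkk2), with medians of -0.30, -0.98 and -0.88. Sfrp2 was at 437, 268, 179 and 80.6 CPM. Of 8 insulin-like growth factor genes only Igfbp5 in db/db 16w (higher) and Igfbp3 in HFD (lower) passed, and the medians were 0.13, -0.21 and -0.12. Igfbp6 on that list belongs to the sum of a comparison class. Igfbp3, the main carrier of insulin-like growth factors in plasma, was at 2514, 2013, 2272 and 191 CPM, a ratio of -3.65 in HFD, and the ratios in the other classes were -3.27 and -4.36.

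Against those same shares, among growth factors and ligands for vessels and nerves 1 was higher and 2 lower of 15 in db/db 8w, 3 and 8 of 15 in db/db 16w and 5 and 3 of 19 in HFD. Fgf10, a fibroblast growth factor that acts on preadipocytes and epithelia, was lower in all 3, at 52.5, 10.5, 18.9 and 21.2 CPM, and Slit2, a guidance ligand, was higher in all 3, at 5.06, 25, 28.3 and 42.4 CPM. These values rest on few UMIs in the last 2 libraries. In db/db 16w members 3 UMIs made 28.3 CPM, so Slit2 stood at that floor and Fgf10 below it. In HFD members 3 UMIs made 12.7 CPM. The medians were -0.22, -1.07 and -0.53, and the middle one was -0.40 with 3 genes at 0 set at the floor of 3 UMIs. Of the growth factor and hormone receptors, 0 were higher and 1 lower of 11 in db/db 8w, 1 and 2 of 11 in db/db 16w, and 1 and 2 of 13 in HFD, with medians of -0.30, -0.32 and 0.00. Egfr, the epidermal growth factor receptor, was at 611, 294, 207 and 344 CPM.

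None of 14 adipogenic genes was higher and 3 were lower in db/db 8w (Lpl, Adipoq and Car3), against 1.85% and 0.956% of all genes. At 16 weeks 3 were higher and 6 lower of 15, against 14.1% and 11%, and in HFD 5 were higher and 1 lower of 15 (Pparg, Klf4, Fabp4, Cd36 and Plin2 against Car3), against 9.17% and 4.08%. The medians were -0.11, -0.38 (-0.35 with 1 gene at 0 set at its floor) and -0.08. Fabp4, a fatty acid carrier of adipocytes, macrophages and vessels, stood at 432, 483, 2263 and 2847 CPM, and Cd36, a fatty acid receptor of the same cells, at 73.1, 91.6, 189 and 454 CPM. Pparg, the adipogenic nuclear receptor, was at 10.1, 12.3, 18.9 and 42.4 CPM. A single WT cell held 605 of 1110 Fabp4, 11 of 26 Pparg and 63 of 65 Adipoq UMIs, and without it WT stood at 198 CPM of Fabp4, 5.89 CPM of Pparg and 0.786 CPM of Adipoq. In db/db 16w 1 cell held 93 of 240 Fabp4 UMIs and another 9 of 20 Cd36 UMIs, without which the ratios were 1.71 and 0.64, so that Cd36 was then under 2-fold. The 8 endothelial markers summed to 23.3, 50.4, 141 and 437 CPM in members, and the part of endothelial RNA in these levels was not tested. Lpl, lipoprotein lipase, was at 2193, 839, 1537 and 1871 CPM. Of the lipid-handling genes, 1 was higher and 1 lower of 16 in db/db 8w, 2 and 4 of 16 in db/db 16w, and 4 and 1 of 17 in HFD, with medians of -0.12, -0.01 (0.02 with 1 gene at its floor) and 0.42. Apod on that list belongs to the rule for members. Gpx3, a secreted glutathione peroxidase on that list, was lower in all 3, at 3142, 1439, 915 and 1277 CPM, and Apoe, apolipoprotein E, stood at 443, 699, 2055 and 1375 CPM. Of 7 retinoid genes, Cyp26b1, which degrades retinoic acid, was higher in all 3, at 25.3, 68.8, 217 and 115 CPM. In db/db 16w Rbp4 was lower, and the medians were -0.15, 0.07 and 0.44.

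The immediate-early and heat-shock genes, which report handling of tissue as well as stress, numbered 17. None passed 2-fold in db/db 8w, 13 were lower in db/db 16w and none higher, against 11% and 14.1% of all genes, and 4 were lower and 1 higher in HFD, against 4.08% and 9.17%, with medians of 0.04, -1.38 and -0.39. Hspa1b, an inducible heat-shock protein, stood at 3315, 2795, 1282 and 97.6 CPM, and HFD was the lowest by far. It is nearly identical to Hspa1a, as are C4b to C4a and Ctla2a to Ctla2b, so the separate values of such pairs are uncertain. Jun, an immediate-early factor, was at 1972, 1826, 622 and 2079 CPM, lowest in db/db 16w. These differences also held in both other classes, with Hspa1b ratios in HFD of -5.79 and -5.20. Against the same shares, the group of nuclear-retained RNA was lower for 5 of 8 genes in db/db 16w, with Kcnq1ot1 at 289, 273, 9.43 and 479 CPM, and Xist was the 1 higher gene. Of 7 such genes in each of db/db 8w and HFD, 0 and 2 were lower and none was higher, and the 3 medians were -0.08, -1.27 and -0.06. Of 12 glucocorticoid genes, Sgk1 was higher in all 3, at 59.9, 136, 160.3 and 153 CPM, and the counts were 1 and 0, 2 and 2, and 2 and 1, with medians of -0.06, -0.19 and -0.26. Of 5 acute phase and metallothionein genes 0, 1 and 2 were lower and none higher, with medians of 0.50, -0.10 and -0.62 and with Mt2 at 364, 687, 339 and 72.1 CPM. Of 11 fibroblast identity genes none passed in either db/db library, and Thy1 was higher and Col1a1 and Col1a2 lower in HFD, with medians of -0.25, -0.16 and -0.48. Col1a1, Col1a2, Col3a1, Dcn and Gsn of that list belong to the rule for members, so these values describe the cells the rule selected. Of the cell cycle genes only 1, 1 and 2 reached the level tested. The 2 in HFD, Pcna and Stmn1, were higher, against 9.17% of all genes, and none passed in either db/db library. The medians were 0.27, 0.20 and 1.29.

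The widest ratios of single libraries came from few cells in places. In db/db 8w the 5 highest genes were Cxcl2, Mgp, Col8a1, Il1b and Ccn2, and the 5 lowest Car3, Sult1e1, Ttr, Iigp1 and Cxcl13. Sult1e1, an oestrogen sulfotransferase, had 60.3 CPM in WT from 50 cells and none in db/db 8w, a level at least 45.9-fold lower. The highest in the db/db 16w library were Xist, Ctla2a, Postn, Cthrc1 and Trem2, and 11 of 14 Trem2 UMIs lay in the largest member (ratio 2.04 without it). Cthrc1, a secreted collagen triple helix protein, was at 15.6, 54.4, 358 and 0 CPM. The lowest in db/db 16w were Ier3, Col4a4, Kcnq1ot1, Retnla and Plac8, of which Ier3, Col4a4 and Retnla had no UMI among 106059, which puts them at least 5.94, 5.14 and 4.13-fold lower than WT. Retnla was at 117, 124 and 115 CPM in WT members, Pi16 Dpp4 and Col15a1 Col4a1 cells, but at 14138 CPM in WT macrophage-gene cells. In db/db 16w macrophage-gene cells it was at 297 CPM. Its db/db 16w ratios were -3.74 in the Pi16 Dpp4 class and -3.51 in the Col15a1 Col4a1 class. In HFD the highest were Rgs5, Mgp, Col8a1, Ptprb and Egr3. Rgs5, a pericyte gene, was at 0.389, 3.07, 18.9 and 106 CPM, and Ptprb, an endothelial phosphatase, at 5.45, 8.77, 37.7 and 119 CPM, beside 10 pericyte and smooth muscle markers, Rgs5 among them, that summed to 44.3, 28.9, 75.4 and 204 CPM in members, and to 44.0, 25.9, 56.6 and 97.6 CPM without Rgs5. The lowest in HFD were Hspa1b, Hspa1a, C1s2, C1rb and Cxcl13.

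Markers of other cells in members were measured in full, with the following sums in CPM. Of 10 macrophage markers 10, 10, 8 and 10 were detected, with C1qc and Mrc1 at 0 in db/db 16w, and of 8 endothelial markers 8, 8, 7 and 8, with Emcn at 0 in db/db 16w. Schwann cell markers summed to 514, 711, 669 and 403 CPM, with Sox10 at 0 in db/db 8w and HFD. That sum was not particular to members. It was 561, 618, 709 and 381 CPM in the Pi16 Dpp4 class and 379, 421, 332 and 306 CPM in the Col15a1 Col4a1 class. In macrophage-gene cells it was 376, 435, 292 and 313 CPM. Perineurial and endoneurial markers summed to 89.5, 75.4, 94.3 and 119 CPM, with Lypd2 at 0 in every library. The 8 adipocyte markers summed to 46.7, 5.26, 0 and 153 CPM, and the 6 mesothelial markers to 0, 0.877, 0 and 0 CPM. T cell, neutrophil and skeletal muscle markers summed to under 13 CPM in each library. Haemoglobin UMIs numbered 9, 5850, 15 and 3, and 5557 of the 5850 in db/db 8w lay in 5 cells. The part of these cells' RNA in the ratios was not tested.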

How the data were processed

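The deposited files held raw UMI counts of 32285 genes per cell barcode in 4 10x 3′ libraries of BAT stromal cells. The authors made these counts with Cell Ranger on mm10, version 6.0.0 per the file headers and 7.1.0 per the submitters' processing notes. Cells were kept with more than 250 and fewer than 6000 genes, more than 500 and fewer than 30000 UMIs and under 15% mitochondrial UMIs, as in the study's methods. Classes were assigned by summed marker levels per 10000 UMIs, with limits of 20 for macrophage and endothelial genes and 5 for activated-fibroblast genes, and ties got no class. The members and the gene lists were chosen with earlier results of these data known. UMIs were summed per class and library and given as CPM, and log2 ratios used 10 CPM added, with exact binomial 95% intervals without it. A gene was measured with at least 20 CPM in one of the 2 libraries and called at 2-fold. No test was run, since each group was 1 library.

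Genes were named by fixed rules. The first took the 12 highest and 12 lowest by the smallest absolute ratio with one sign in all 3 comparisons. The second took the 25 highest and 10 lowest against both other classes. The third took the 5 highest and 5 lowest in each comparison. The remaining names were list genes past 2-fold in the most comparisons or with the highest CPM in WT, the marker genes and Lepr, and genes used as markers of other cells. Some list genes (Ctsk, Cxcl12, Jun, Pparg and Mt2 among them) and the splits of members by leading gene, Cilp UMI and tenocyte genes were chosen after their values were seen. Mitochondrial, ribosomal, haemoglobin and predicted genes were left out of the first 3 rules. In the first 3 rules, a gene needed 20 CPM in WT or in each other library, in members of each library, and in one of both libraries compared, in that order.

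Doublet scores came from the Scrublet routine of scanpy 1.11.5, marking the top share of 0.8% per 1000 barcodes, and were kept, with removal as an alternative. Neighbours were the 15 nearest among stromal cells over 20 principal components of 2000 variable genes. Gene coordinates came from GRCm38, where 32158 of 32285 identifiers matched. Scripts ran in Python 3.11.15 with numpy 2.4.6, pandas 2.3.3, scipy 1.17.1, scikit-learn 1.9.0 and matplotlib 3.10.9, and were checked on simulated counts. 16 alternatives were tried, 4 of them chosen after seeing the data, as was leaving out, gene by gene, the member with the most UMIs of a gene. A few items that met these rules are not reported here.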

Additional observations from a re-analysis of the deposited data

Results flagged for a closer look

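Differences in the frequency of subsets of members pointed in opposite directions between libraries, and none of these differences could be tested with 1 library per group. The share of quality-passing cells that were members with a Cilp UMI was 1.06 points above WT in db/db 8w, 1.36 points below it in db/db 16w (difference -1.36) and 1.01 points below it in HFD (-1.01). The share of members led by Eln was 1.52 points above WT in db/db 8w and below it in db/db 16w (-0.418) and HFD (-0.429). Both subsets are set by genes of the rule, so these shares describe the selection.

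Ccn2, connective tissue growth factor, had a log2 ratio of 2.32 in db/db 8w members and of -1.48 in db/db 16w members, where it was seen in 3 cells. The difference between the libraries was not tested.

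Barcodes left out for their mitochondrial share alone also held cells that met the rule for members. In db/db 8w these were 229 of 6166 such barcodes (3.71%, interval 3.26% to 4.22%), against 26 of 1615 (1.61%) in WT, 80 of 11948 (0.670%) in HFD and 0 of 55 in db/db 16w.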

How the results depend on the processing

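The counts of genes past 2-fold depended on the treatment of low counts, since db/db 16w and HFD members held few UMIs. The main counts were 112 higher and 58 lower in db/db 8w, 921 and 716 in db/db 16w and 623 and 277 in HFD. With 1 CPM added they were 176 and 104 in db/db 8w, 1086 lower in db/db 16w, and 1046 and 487 in HFD. With a minimum of 50 CPM they were 72 and 37, 557 and 350, and 325 and 150. With no filter on low levels, 1304 were lower in db/db 16w and 433 in HFD. Median-of-ratios scaling gave 575 higher and 1080 lower in db/db 16w and 436 lower in HFD. Cells thinned to 2000 UMIs gave 205 and 138, 2067 and 1637, and 1217 and 806, and a share among the 3 classes of -9.28 points against WT in db/db 16w.

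With Apod left out of the marker sum the share of quality-passing cells differed from WT by -3.83 points in db/db 16w (1132 genes lower) and by -3.62 points in HFD (447 lower). With no mitochondrial limit the share was -4.0 points in db/db 16w, and among the 3 classes -4.03 points in HFD. With Inmt left out, chosen after seeing the data, the db/db 8w share turned to 1.96 points, with -1.73 and -1.34 points in db/db 16w and HFD. Among the 3 classes the values were then 6.29, -2.32 and -0.942 points, and 419 genes were lower in HFD. Without members with 2 or more tenocyte UMIs, also chosen after seeing the data, the share was -4.04 points in db/db 16w and -3.73 in HFD.

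Single genes reversed in few places and the cause was not tested. In db/db 16w these were Ptprb (-0.47) in thinned cells, Rgs5 (-0.072) without Apod, Lcp1 (-0.13) without Inmt, Lcp1 (-0.11) without the largest db/db 16w member, and Lcp1 (-0.13), Ctss (-0.74) and C1qtnf3 (-0.44) without tenocyte-marker members. Tnmd reversed in db/db 8w (0.042) without those members. Of the other named-gene values under the alternatives, 3397 stayed within 1.5-fold of the main value and 483 moved further with the same direction. Of list medians 1084 stayed and 18 moved. No paired analysis was possible because each group held 1 library.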
